A study of Mus musculus with 12 samples.

Results

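Plasmacytoid dendritic cells (pDC) were described among cells that had been selected with CD4 and CD8 beads from mouse breast tumors. A cell was counted as a pDC when it held at least 200 detected genes, at least 2 unique molecular identifiers (UMI, 1 per captured transcript) each of Siglech and Bst2, no UMI of Cd3e and at most 2 of C1qa. This rule was met by 79 of 22806 CD4/CD8-selected cells, or 0.346% (95% exact binomial interval 0.274 to 0.432), out of 34445 cells in the whole series. The tumors arose spontaneously in MMTV-PyMT mice, in which the mammary tumor virus promoter drives the polyoma middle T antigen, and every mouse of both genotypes carried this transgene. The mice were either PAR2 wild-type or carried the PAR2 G37I mutation, which makes this protease receptor resistant to coagulation factor Xa, and received no additional treatment. CD4/CD8-selected cells came from 3 samples of each genotype and CD11c-selected cells from another 3 of each, and transcripts of single cells were measured on the 10x Genomics platform after freezing and thawing. The CD4/CD8-selected cells were taken when tumors were of middle size and the CD11c-selected cells at a late stage, and the age of these mice is not stated in the labels. The deposited barcodes name no sample, so each selection was treated as 1 sample, the genotypes were not compared, and no p-values are given. Intervals below are 95% intervals that cover counting error only.

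pDCs are the dendritic cell lineage specialized in type I interferon. They sense viral and self nucleic acids in endosomes through Toll-like receptors 7 and 9, and in mice they are marked by Siglech, an inhibitory lectin that signals through the adapter Tyrobp, and by Bst2, the antigen of widely used pDC antibodies. The E protein Tcf4 (E2-2) sets and holds the pDC fate against the Id2-dependent conventional dendritic cell (cDC) fate. In tumors pDCs are known as poor interferon producers in many settings. Mouse pDCs can carry CD4 and CD8 alpha on their surface.

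The 79 pDCs stood well clear of the limits of the rule. Siglech ranged from 5 to 41 UMIs with a median of 17, Bst2 ranged from 7 to 84 with a median of 32, and 0 of the 79 cells lay between the limit of 2 Siglech UMIs and 4. Just outside, only 3 cells without Cd3e and with at most 2 C1qa UMIs held any Siglech and were not counted, at no more than 2 UMIs. A larger number of cells with Siglech failed by their Cd3e or C1qa UMIs. Of 143 cells with 2 or more Siglech UMIs, 64 were outside the rule, 28 of them by Cd3e alone, 26 by C1qa alone, 8 by both and 2 by Bst2. The 28 cells with Cd3e had a median of 20 Siglech UMIs and 14882.5 UMIs in all, against 9193 UMIs in the pDCs, and 6 of them held a single Cd3e UMI. No doublet caller was run, and whether these cells are pairs of cells was not tested.

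**Figure D1:**
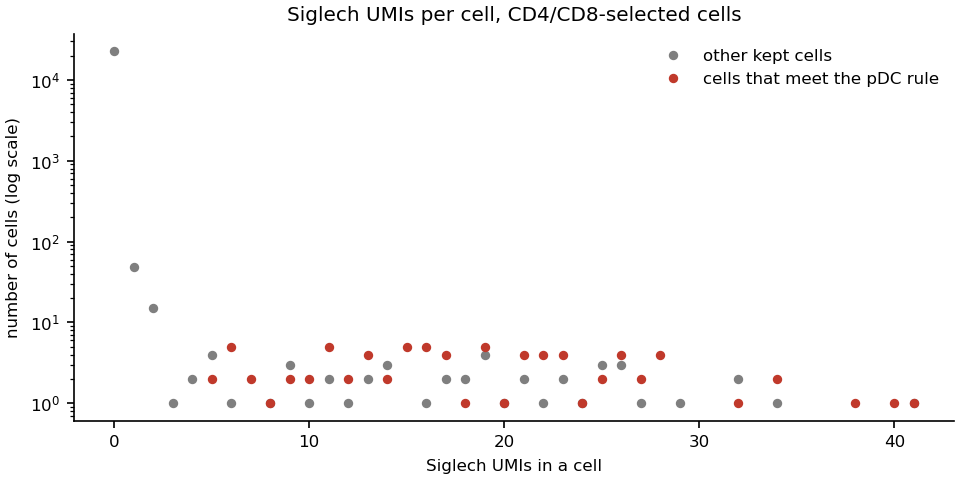
Number of cells (log scale) at each count of Siglech UMIs, for the 79 cells that met the pDC rule (red) and for the other CD4/CD8-selected cells (grey). Red points begin at 5 UMIs, and grey points above that are cells that also held Cd3e or more than 2 C1qa UMIs.

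Listed markers of the lineage were high in these cells, and of them the rule used only Siglech and Bst2. Levels are given as UMIs per 1000000 UMIs of the group (CPM). Against 13338 cells with Cd8a and Cd3e (CD8+ T cells hereafter) and 964 cells with at least 3 C1qa UMIs and Csf1r (macrophages hereafter), genes were compared when they reached 20 CPM in either group and 20 UMIs in both together, and a difference of at least 4-fold was counted as higher or lower. All 18 listed pDC markers were higher than in CD8+ T cells, where 9.76% of 6157 genes were higher, and 17 of 18 were higher than in macrophages, where 7.6% of 6314 genes were. The exception was Bst2, which was 3.4-fold higher than in macrophages. The markers had a median of 207-fold over CD8+ T cells and 79.1-fold over macrophages, beside medians over all compared genes of 1.07 and 1.26. Since the cells were chosen by 2 of these markers, these counts describe the cells and are no test. Most markers also entered the comparison only through their level in the pDCs. In CD8+ T cells only Bst2 and Ly6c2 of them reached 20 CPM.

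Among the markers, Ccr9, the receptor for the gut and thymus chemokine Ccl25, was found in 78 of 79 pDCs at 1727 CPM, against 8.17 CPM in CD8+ T cells and 11.8 CPM in macrophages. Ly6d, a surface protein of lymphoid progenitors that also marks the lymphoid path to pDCs, was found in 76 cells, and ranged from 0 to 167 UMIs with a median of 25. Cox6a2, a muscle isoform of a cytochrome oxidase subunit, was found in 74 cells at 1088 CPM. Klk1, a kallikrein protease, was found in only 47 cells at 480 CPM. The comparison groups contained some of these transcripts in few cells. Siglech stood at 7.66 CPM in CD8+ T cells, but fell to 0.161 CPM when the 34 T cells with 2 or more Siglech UMIs were left out, and Ccr9 moved from 8.17 to 0.893 CPM, so that the folds of such genes over T cells were larger without these cells.

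Ranked by fold over all other CD4/CD8-selected cells, among genes found in at least 25% of pDCs, the leading 25 genes included Cacna1e, Il12a, Fcrla, Iglc3, Dntt, Klk1, Siglech, Foxr1, Gm21762, Spib, Havcr1, Ccr9, Adam11, Cox6a2, Cd300c, Flt3, Sh3bgr, Smim5, Clec9a, Iglc2, Klra17, Mzb1, Mn1 and Atp2a1. Among them were a voltage-gated calcium channel subunit (Cacna1e, 112 CPM in 49 cells) and a sarcoplasmic calcium pump (Atp2a1, 175 CPM in 59 cells), beside genes shared with B lymphocytes. Fcrla, an intracellular Fc receptor-like protein of B cells, was found in 74 cells at 599 CPM, against 2.18 CPM in CD8+ T cells and 5.25 CPM in macrophages.

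Because Tcf4 binds E-box elements, the 250 bases before the RefSeq start (GRCm38.p6) of the leading genes were searched for CACCTG and for CAGGTG, which is the same site read on the other strand. The table of promoters held 15 of the 25 leading genes, and 8 of these, or 53.3%, had the letters in at least 1 window, compared with 5252 of 27025 genes, or 19.4%, of the whole table. The 8 genes were Il12a, Fcrla, Klk1, Siglech, Foxr1, Havcr1, Ccr9 and Cd300c, and Spib and Flt3 were among the 7 without. This is a description of letters and not of binding, and genes with several windows had more chances. Siglech, Ccr9 and Fcrla were picked from the 8 genes with the letters because they separated the pDCs from nearly all other cells. Cacna1e, Dntt and Spib were also among the leading genes but lacked the letters. The windows of the picked genes are shown with the element in capitals. Its first base lay 20 bases before the start of Siglech (chr7:55767934-55768183, plus strand), 85 before Ccr9 (chr9:123766961-123767210, plus strand) and 69 before Fcrla (chr1:170927584-170927833, minus strand).
Siglech: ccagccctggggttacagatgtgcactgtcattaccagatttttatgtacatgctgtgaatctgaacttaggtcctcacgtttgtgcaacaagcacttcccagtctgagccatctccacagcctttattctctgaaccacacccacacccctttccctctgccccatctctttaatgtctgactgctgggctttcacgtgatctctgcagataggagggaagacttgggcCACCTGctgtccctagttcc
Ccr9: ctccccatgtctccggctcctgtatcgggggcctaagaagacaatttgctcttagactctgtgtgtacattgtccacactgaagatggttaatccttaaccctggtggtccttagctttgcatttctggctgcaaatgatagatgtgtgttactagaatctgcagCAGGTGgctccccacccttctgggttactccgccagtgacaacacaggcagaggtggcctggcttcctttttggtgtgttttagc
Fcrla: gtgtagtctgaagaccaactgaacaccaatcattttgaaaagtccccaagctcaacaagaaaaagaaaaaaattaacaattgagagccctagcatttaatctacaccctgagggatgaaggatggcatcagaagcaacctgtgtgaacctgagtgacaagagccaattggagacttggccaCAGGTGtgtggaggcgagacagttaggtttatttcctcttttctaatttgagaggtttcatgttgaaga

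Most transcription factors of the pDC fate were higher than in the other cells, while those of the cDC fate were mixed. Tcf4 was found in all 79 cells at 1307 CPM (1227 to 1391), 125-fold higher than in CD8+ T cells (114 to 137) and 7.51-fold higher than in macrophages (6.99 to 8.06). Irf8, which cDC1 also need, was found in 75 cells at 1724 CPM, 9.4-fold higher than in macrophages. Spib, an Ets factor of pDCs and B cells, stood at 404 CPM against 1.68 and 2.68 CPM, and Bcl11a, which acts with Tcf4, at 158 CPM against 0.664 and 0.893 CPM. Runx2, which is needed for pDC exit from bone marrow, stood at 221 CPM against 63 CPM in CD8+ T cells and 17.3 CPM in macrophages. Of the 11 pDC factors, 7 were higher and 1 was lower than in CD8+ T cells, beside 9.76% higher and 7.55% lower of all compared genes. Against macrophages 8 were higher and 1 was lower, beside 7.6% higher and 12.3% lower of all compared genes. The lower ones were Ets1 against CD8+ T cells (118 and 561 CPM) and the myeloid factor Spi1 against macrophages (69.3 and 298 CPM).

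Id2, the inhibitor of E proteins, was the reverse of Tcf4. It was found in 18 of 79 pDCs at 43.1 CPM, which was 12.9-fold lower than in CD8+ T cells (9.17 to 18.7) and 14.2-fold lower than in macrophages (10.1 to 20.6). The barcodes run through the alphabet 6 times, and these stretches, called barcode runs, were not linked to samples. Without run 1, Id2 was at 25.7 CPM. Batf3, a factor of cDC1, was at 2 UMIs and Zbtb46, a factor of all cDCs, at 3 UMIs, both at or under the 3.92 CPM that 3 UMIs amount to in this group. Other factors of this list were present. Irf4, which serves cDC2 and also pDCs, stood at 77.1 CPM in 36 cells, against 8.31 and 6.25 CPM. Klf4 stood at 183 CPM in 44 cells, between 100 CPM in CD8+ T cells and 412 CPM in macrophages, and Relb at 57.5 CPM in 29 cells, against 45.8 and 47.7 CPM. Of 5 compared genes of the cDC list, 1 was higher (Irf4) and 1 lower (Id2) than in either group, with medians of 1.26 over CD8+ T cells and 0.444 over macrophages. Of all compared genes, 9.76% were higher and 7.55% lower than in CD8+ T cells, and 7.6% and 12.3% than in macrophages.

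**Figure D2:**
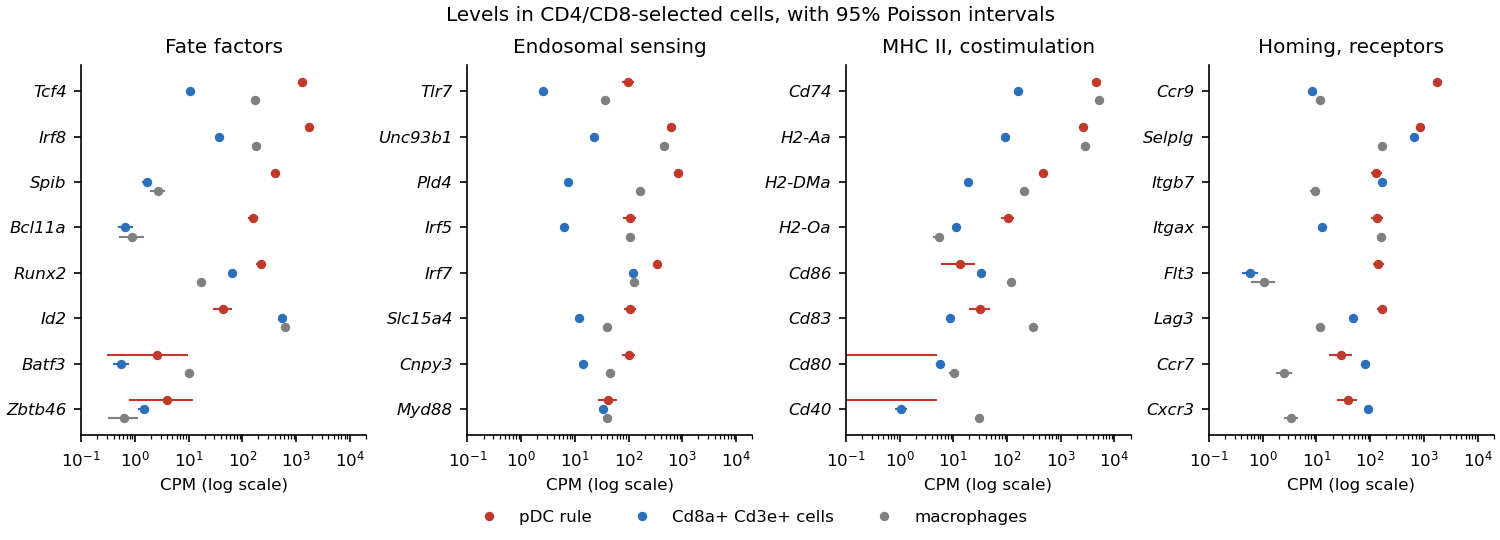
Levels (CPM, log scale) of 32 genes by role in pDC-rule cells (red), CD8+ T cells (blue) and macrophages (grey) of the CD4/CD8-selected cells, with lines for 95% Poisson intervals; a line without a point is a gene with 0 UMIs. Tcf4, Spib, Bcl11a, Ccr9 and Flt3 separate the pDCs from both groups. Cd74 and H2-Aa stand with macrophages, H2-Oa stands above them, and Id2, Cd86, Cd80 and Cd40 are low.

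The pDCs carried transcripts of the proteins for which the cells had been selected. Cd8b1, the CD8 beta chain, was found in 74 of 79 cells at 1233 CPM (1155 to 1314), Cd8a, the alpha chain, in 67 cells at 501 CPM (452 to 553), and Cd4 in 39 cells at 128 CPM (104 to 156). At least 1 of the CD8 chains was present in 78 cells, and 0 cells lacked all 3 transcripts. Over the 6 barcode runs, Cd8b1 stood at 1046, 1646, 920, 773, 1029 and 1270 CPM. Cd8a stood at 173, 625, 495, 309, 294 and 870 CPM and Cd4 at 182, 104, 212, 89.5, 180 and 71.7 CPM. Each chain was thus found in every run, with a wider spread for Cd8a than for Cd8b1.

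These levels differed from those of the T cells around them. Cd8b1 was 1.66-fold higher in pDCs than in CD8+ T cells (1.56 to 1.77), and Cd4 was 19.4-fold higher (15.5 to 24.1). The ratio of the same pair of genes was then compared across groups. Cd8a per Cd8b1 UMI was 0.406 (0.360 to 0.458) in pDCs and 0.346 (0.298 to 0.402) in the 57 pDCs without any UMI of Cd3d, Cd3g, Trac or Trbc2. It was 0.884 (0.874 to 0.895) in CD8+ T cells, which were chosen by Cd8a, 0.822 (0.813 to 0.832) in all cells with Cd3e, and 0.946 (0.832 to 1.07) in macrophages. Cd8b1 per Cd3d UMI was 85.7 (47.7 to 172) in pDCs, 0.799 in CD8+ T cells and 1.23 in macrophages. Cd4 per Cd3d UMI was 8.91 (4.77 to 18.4) in pDCs and 0.470 (0.432 to 0.511) in 464 cells with Cd3e and Cd4 but neither CD8 chain. The absence of Cd3e was part of the rule and Cd3d follows it, so the rule raises both ratios to Cd3d. The ratio of both CD8 chains uses no gene of the rule. It still depends on leaving out cells with T cell RNA, since it moved from 0.406 to 0.346 without T cell UMIs.

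A Cd8b1 UMI was found in 10.6% of macrophages, whose median of 18012 UMIs was above the 9193 of the pDCs, against 93.7% of pDCs. With each cell thinned to 2000 UMIs, which left out 31 macrophages and 0 pDCs, the shares were 3.22% and 74.7%. The macrophages are not a clean measure of free RNA, since 56 of them also met the rule for CD8+ T cells. Their Cd8b1 level fell from 26.1 to 14.7 CPM without the 33 macrophages with 2 or more Siglech UMIs. Without Cd3e, 11 T cell genes summed to 3.88% of their level in all other cells, and 10 macrophage genes without C1qa and Csf1r to 1.54%, while Cd8b1 was at 233% and Cd8a at 116%. Both sums are lowered by the rule, which kept out cells with Cd3e or more than 2 C1qa UMIs. In the GENCODE annotation (GRCm38), Cd8b1 (chr6:71322788-71337494) and Cd8a (chr6:71373427-71379173) lie on the plus strand 35932 bases apart, and neither overlaps another coding gene on that strand. Beads against CD4 and CD8 will keep cells with these proteins, so the share of pDCs among the selected cells, and of CD8-bearing cells among pDCs, cannot be told apart from the selection.

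**Figure D3:**
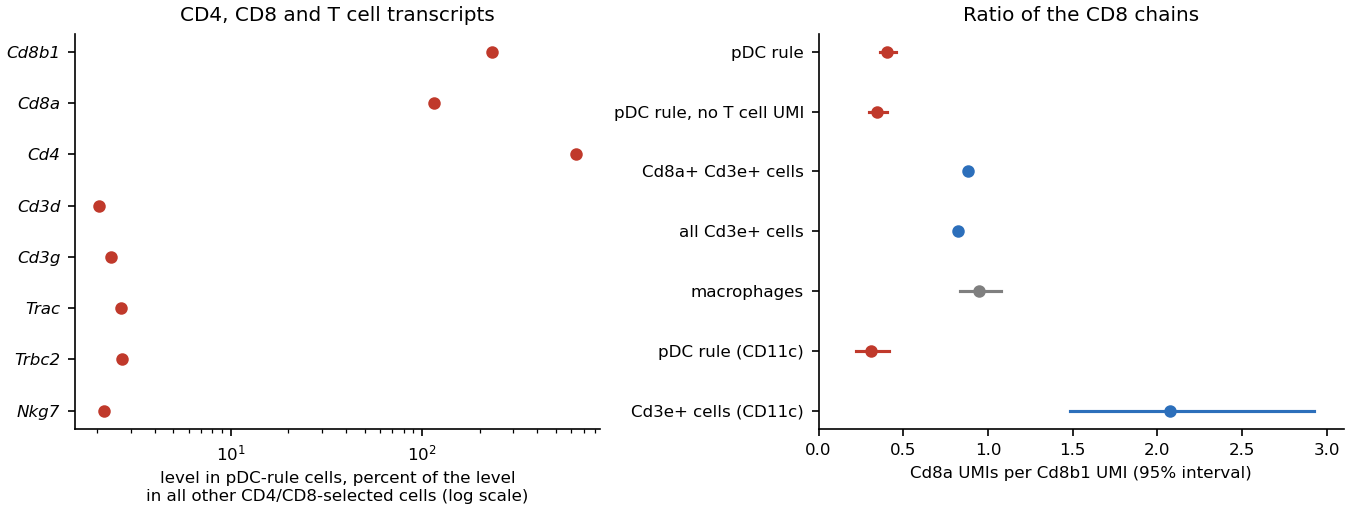
Left, levels in pDC-rule cells as a percent of the level in all other CD4/CD8-selected cells (log scale) for Cd8b1, Cd8a, Cd4 and 5 T cell genes; right, Cd8a UMIs per Cd8b1 UMI with 95% intervals in pDC-rule cells (red), cells with Cd3e (blue) and macrophages (grey), where (CD11c) marks CD11c-selected cells. The 5 T cell genes stand near 2 to 3%, the 3 bead targets above 100%, and the pDC ratios of 0.406, 0.346 and 0.307 below all others shown.

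Most genes of endosomal nucleic acid sensing were found in the pDCs. Tlr7, the receptor for single-stranded RNA, was found in 42 cells at 98 CPM, 38-fold higher than in CD8+ T cells (28.8 to 49.6) and 2.7-fold higher than in macrophages (2.1 to 3.43). Unc93b1, which carries these receptors to endosomes, was found in all 79 cells at 609 CPM, against 22.6 CPM in CD8+ T cells and 451 CPM in macrophages. Pld4, an endosomal exonuclease, stood at 818 CPM, 4.97-fold higher than in macrophages. Slc15a4, a transporter that pDCs need for interferon, stood at 107 CPM against 11.7 and 40.1 CPM, and Irf5 at 105 CPM, near the 107 CPM of macrophages. Irf7, the master regulator of interferon in pDCs, stood at 340 CPM against 119 and 126 CPM, both less than the 4-fold that was counted. Of 15 compared genes of this list, 9 were higher and 1 (Pld3) was lower than in CD8+ T cells, beside 9.76% higher and 7.55% lower of all compared genes. Against macrophages 1 of 16 was higher and 4 were lower, beside 7.6% higher and 12.3% lower of all compared genes, and the lower ones were Cd68, Ctsb, Lgmn and Pld3, proteins of the lysosome.

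Tlr9, the DNA receptor, was at 0 UMIs in the pDCs, where 3 UMIs amount to 3.92 CPM and the 95% interval reaches 4.82 CPM, and stood at 0.0369 CPM in CD8+ T cells and 0.578 CPM in macrophages. It was near 0 in each of the 3 groups, and no direction was read from it and whether the counting captures it was not tested. The cytosolic pathway that makes interferon from DNA was thin at its sensor, with 1 UMI of Mb21d1 (cGAS), while Tmem173 (STING) stood at 82.4 CPM in 38 cells against 26.9 and 39.7 CPM. Trex1 was listed at 0 in every cell of both selections, but it overlaps Atrip on the same strand in GENCODE, and its 0 says nothing about the gene's expression. Toll-like receptors for bacterial ligands were nearly missing, with 1 UMI each of Tlr2 and Tlr4 and none of Tlr13, while Tlr12 was found in 14 cells at 19.6 CPM.

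Interferon transcripts came to 1 UMI at this depth. Of 20 type I and III interferon genes, 19 had 0 UMIs in the 765012 UMIs of the pDCs, and Ifnl2 had 1, with an upper 95% limit of 4.82 CPM for each of the 19. Of 13 compared interferon-induced genes, 2 were higher than in CD8+ T cells (Ly6a and Ifi44) and 1 was lower (Oas3), with a median of 0.577, beside 9.76% higher and 7.55% lower of all compared genes. Against macrophages 1 was higher (Ly6a) and 3 were lower (Ifitm3, Rsad2 and Oas3), with a median of 0.632, beside 7.6% higher and 12.3% lower of all compared genes. Ly6a (Sca-1), which interferon induces but which also marks progenitors and subsets of pDCs, was found in 75 cells at 1864 CPM, 7.94-fold higher than in CD8+ T cells (7.52 to 8.38). Isg15, a ubiquitin-like interferon target, was found in 18 cells, at 111 CPM against 192 and 91 CPM.

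The rest of this program was confined among these cells to very few. The same 2 pDCs, in barcode runs 2 and 3, held all 17 Ifit1 UMIs and all 44 Cxcl10 UMIs, 27 of 29 Ifit3 UMIs and 13 of 14 Mx1 UMIs, but 18 of 85 Isg15 UMIs. Without these cells Ifit3 fell from 37.9 to 2.7 CPM. The count of interferon-induced genes lower than in CD8+ T cells was then 6 of 14 compared (Ifit1, Ifit3, Mx1, Oas3, Rsad2 and Xaf1), with a median of 0.467, and 6 of 13 were lower than in macrophages (Ifit1, Ifit2, Ifit3, Ifitm3, Oas3 and Rsad2), with a median of 0.332. The genes higher were then 2 and 1. With all pDCs, 7.55% of all compared genes were lower than in CD8+ T cells and 12.3% lower than in macrophages. The same 2 pDCs also held 55 of the 159 UMIs of the T cell list and 19 and 79 of the 130 Ccl5 UMIs. Of these cells, 1 had no Ccr9 UMI, and their depth was 10968 and 14458 UMIs. Whether they carry the RNA of another cell was not tested. The receptor for type I interferon was present in the pDCs, with Ifnar1 at 319 CPM in 69 cells and Ifnar2 at 329 CPM in 68 cells, against 110 and 41.5 CPM in CD8+ T cells. Ifngr1, the interferon gamma receptor chain, stood at 94.1 CPM, 9.1-fold lower than in CD8+ T cells (7.22 to 11.6).

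Among cytokines, Ccl4 and Il12a stood out. Ccl4, a chemokine that attracts T cells, was found in 53 of 79 cells and missing from 26. It stood at 1885 CPM, against 159 CPM in CD8+ T cells and 562 CPM in macrophages, and reached 195 UMIs in 1 cell with a median of 2. Its values over the 6 runs were 5767, 485, 657, 1652, 3333 and 2386 CPM, so that the lowest run was below macrophages as a whole. The 8 cells with most Ccl4 held 64.8% of its UMIs. Ccl3, a neighboring chemokine gene, was found in 12 cells, and 12 of those 12 also held Ccl4. It stood at 96.7 CPM, at 153 CPM without run 2 and at 59.9 CPM without run 6. Il12a, the p35 chain of interleukin 12 and also of interleukin 35, was found in 26 cells at 68 CPM (50.8 to 89.1), 276-fold higher than in CD8+ T cells (162 to 489), while Il12b, the p40 chain, was at 0 UMIs. Il6, Il10, Ccl2, Ccl22 and Cxcl9 were also at 0 UMIs, Tnf was at 14 UMIs in 10 cells, Gzmb at 6 UMIs and Tnfsf10 (TRAIL) at 1 UMI. Tgfb1, at 200 CPM in 61 cells, lay between 193 CPM in macrophages and 204 CPM in CD8+ T cells. Of 9 compared genes of the list, 2 were higher and 3 lower than in CD8+ T cells, beside 9.76% higher and 7.55% lower of all compared genes, and of 10 compared with macrophages 1 was higher and 4 were lower, beside 7.6% higher and 12.3% lower of all compared genes.

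The MHC class II genes Cd74 and H2-Aa stood near macrophages and costimulatory genes stood below them. The invariant chain Cd74 was found in all 79 cells at 4540 CPM, against 160 CPM in CD8+ T cells and 5247 CPM in macrophages, and H2-Aa in 72 cells at 2563 CPM, against 90.3 and 2845 CPM. H2-Oa and H2-DMb2, chains of the peptide editors that B cells and dendritic cells carry, stood above macrophages. H2-Oa was at 103 CPM, 19.1-fold higher (14.1 to 25.9), and H2-DMb2 at 45.8 CPM against 3.05 CPM. Of the costimulatory genes, Cd40 and Cd80 were at 0 UMIs. Cd83, an activation marker of dendritic cells, was 9.9-fold lower than in macrophages (6.65 to 15.5), and Cd86 was 9-fold lower (4.88 to 18.8), with 24 and 10 UMIs. The checkpoint ligand Cd274 (PD-L1) had 10 UMIs in 6 cells and Ido1 had 0. Of 11 genes of this list compared with CD8+ T cells, 8 were higher and 0 lower, beside 9.76% higher and 7.55% lower of all compared genes, and of 12 compared with macrophages, 2 were higher and 3 lower, beside 7.6% higher and 12.3% lower of all compared genes.

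Among homing receptors, Ccr9 was high and Ccr7 and Cxcr3 were lower than in CD8+ T cells by less than 4-fold. The selectin ligand Selplg was found in all 79 cells at 858 CPM, near the 667 CPM of CD8+ T cells, and Itgb7, an integrin chain for gut homing, at 131 CPM in 57 cells, near the 169 CPM of CD8+ T cells. Ccr7, for entry to lymph nodes after activation, stood at 28.8 CPM and Cxcr3, for inflamed tissue, at 37.9 CPM, against 79 and 93.1 CPM in CD8+ T cells. Itgax, which encodes CD11c, was found in 52 cells at 135 CPM, against 160 CPM in macrophages. Of the 15 genes, 8 were higher and 2 lower than in macrophages, beside 7.6% higher and 12.3% lower of all compared genes, and of the 13 compared with CD8+ T cells 3 were higher and 0 lower, beside 9.76% higher and 7.55% lower of all compared genes.

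Among growth factor and inhibitory receptors, Flt3, the cytokine receptor on which dendritic cell development depends, stood at 141 CPM in 59 cells against 0.578 CPM in CD8+ T cells and 1.05 CPM in macrophages. Csf2rb, the shared beta chain for GM-CSF and interleukin 3, stood at 447 CPM in 76 cells, while Csf1r, the macrophage growth factor receptor, was at 0 UMIs. Lag3, an inhibitory receptor for MHC class II that is known from exhausted T cells and from pDCs, was found in 60 cells at 165 CPM, 3.47-fold higher than in CD8+ T cells (2.88 to 4.15), which is under the 4-fold limit. Its share of cells was 24.1% against 10.3% of T cells after thinning. Pdcd1 (PD-1) went the other way, with 7 UMIs, or 9.15 CPM, against 260 CPM in CD8+ T cells. Of 12 genes of the list compared with CD8+ T cells, 9 were higher and 1 lower, beside 9.76% higher and 7.55% lower of all compared genes, and of 16 compared with macrophages, 4 were higher and 5 lower, beside 7.6% higher and 12.3% lower of all compared genes. Tyrobp, the adapter of Siglech, was found in all 79 cells at 3786 CPM, against 65.1 CPM in CD8+ T cells and 2965 CPM in macrophages.

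The secretory machinery passed the 4-fold limit about as rarely as all genes did. Its median folds were above those over all compared genes, which were 1.07 against CD8+ T cells and 1.26 against macrophages. Of 16 compared genes, 2 were higher than in CD8+ T cells, Xbp1 and Herpud1, and 0 lower, with a median of 2.14, beside 9.76% higher and 7.55% lower of all compared genes. Against macrophages 1 was higher (Xbp1) and 0 lower, with a median of 2.3, beside 7.6% higher and 12.3% lower of all compared genes. Xbp1, the factor of the unfolded protein response that builds the secretory apparatus, stood at 529 CPM, 8.67-fold higher than in CD8+ T cells (7.81 to 9.59). Herpud1, of protein degradation at the endoplasmic reticulum, stood at 433 CPM against 65.5 and 109 CPM, and Manf, a chaperone of the same compartment, at 468 CPM against 144 and 157 CPM. Derl3, a partner of secretory cells, had 5 UMIs.

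A set of lymphoid genes was found in most pDCs. Dntt, the terminal transferase that adds bases to antigen receptor joints, had 235 UMIs in 62 cells, or 307 CPM (269 to 349), 250-fold higher than in CD8+ T cells (197 to 319). Iglc3, an immunoglobulin lambda constant gene, had 467 UMIs in 70 cells, and Igkc, the kappa constant gene, had 340 UMIs in 47 cells. Ighm, the constant gene of the mu heavy chain, was found in all 79 cells at 874 CPM, against 59.4 and 46.8 CPM. Both kinds of light chain were counted in 45 cells, lambda alone in 25, kappa alone in 2 and neither in 7. The recombinases Rag1 and Rag2 were at 0 UMIs. Of 10 genes of the B cell and plasma cell list, 5 were at 0 UMIs, among them Cd79a, Ms4a1, Pax5 and Jchain, while Cd79b had 19 UMIs in 16 cells and Ighd 13 UMIs in 11 cells. The 3 compared with CD8+ T cells (Ighm, Igkc and Cd79b) were higher, beside 9.76% of all compared genes. Of 3 compared with macrophages 2 were higher and 0 lower, beside 7.6% higher and 12.3% lower of all compared genes. The constant genes of the lambda locus are near copies of each other, so reads may be split between Iglc2 and Iglc3. As background, a UMI of Iglc3 was found in 1.56% of macrophages and 0.24% of CD8+ T cells, and one of Igkc in 12.3% of CD8+ T cells, against 88.6% and 59.5% of pDCs.

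Markers of other cells were sparse, with exceptions among dendritic cell genes. Xcr1, which defines cDC1, was at 0 UMIs, but Clec9a, a receptor for dead cells on cDC1 that pDCs can also carry, was found in 41 cells at 88.9 CPM against 0.344 and 1.52 CPM. Clec10a, a lectin of cDC2 and macrophages, was found in 46 cells at 199 CPM, against 59.3 CPM in macrophages, and Cd209a in 14 cells at 54.9 CPM, or 34.1 CPM without run 5. The rules fixed Cd3e, C1qa and Csf1r. Of the 11 other T cell genes, 0 were higher and 10 lower than in CD8+ T cells, beside 9.76% higher and 7.55% lower of all compared genes. Of the 10 other macrophage genes, 10 were lower than in macrophages, beside 12.3% of all compared genes. The choice of cells without Cd3e and with little C1qa also favors both counts. By run, the T cell list summed to 49 to 324 CPM and the macrophage list to 10.2 to 1011 CPM. The tumor list of 7 epithelial genes summed to 318 CPM, against 2024 CPM in all other cells, with Epcam in 26 cells at 52.3 CPM. Cdh1 (E-cadherin), which is not confined to epithelium, was found in 44 cells at 114 CPM, against 57.9 CPM in CD8+ T cells and 4.99 CPM in macrophages. Cycling genes were low, with 1 UMI of Mki67 and 15 of Top2a in 7 cells. Of 8 compared genes, 7 were lower than in CD8+ T cells, beside 7.55% of all compared genes. The transitional dendritic cell gene Axl had 3 UMIs, and Cx3cr1 had 2.

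Genes of the coagulation pathway under study were at or near 0 in the pDCs. F10 and F7, the genes of factors X and VII, were at 0 UMIs, against 10.7 and 10.1 CPM in macrophages. F2rl1, which encodes PAR2, was at 1 UMI, and Procr, the endothelial protein C receptor, at 8 UMIs, or 10.5 CPM against 68.3 CPM in macrophages. The 3 UMIs that a count of 0 allows amount to 3.92 CPM, so levels under a few CPM could not be detected at this depth.

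Among the listed genes, the pDCs differed among themselves most in Ccl4, while some of the lineage genes were near what sampling alone gives. After thinning each cell to 2000 UMIs, a variance equal to the mean is what sampling alone gives. Siglech had a ratio of 1.39 and Bst2 of 1.18, both with a minimum set by the rule, and Tcf4 had 1.32. Other listed pDC markers were more uneven, with 2.19 for Cox6a2, 2.42 for Klk1, 2.72 for Cd209d, 2.96 for Ccr9, 3.55 for Ly6c2 and 7.09 for Ly6d. H2-Aa had 4.26 and Ccl4 14.1. Of the 10 genes with the largest ratios, Ccl4, Ccl5 and Ly6d belong to immune roles named above. The others were Gm42418, which had the largest ratio of all at 14.3, Malat1, Fth1, Hsp90aa1, Actb, Neat1 and Hspe1. Gm42418 overlaps ribosomal RNA, Malat1 and Neat1 are nuclear RNAs, and Hsp90aa1 and Hspe1 are heat shock genes, which vary with cell handling, whose part here was not tested. Ccl5 rested on 1 cell with 79 of 130 UMIs.

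**Figure D4:**
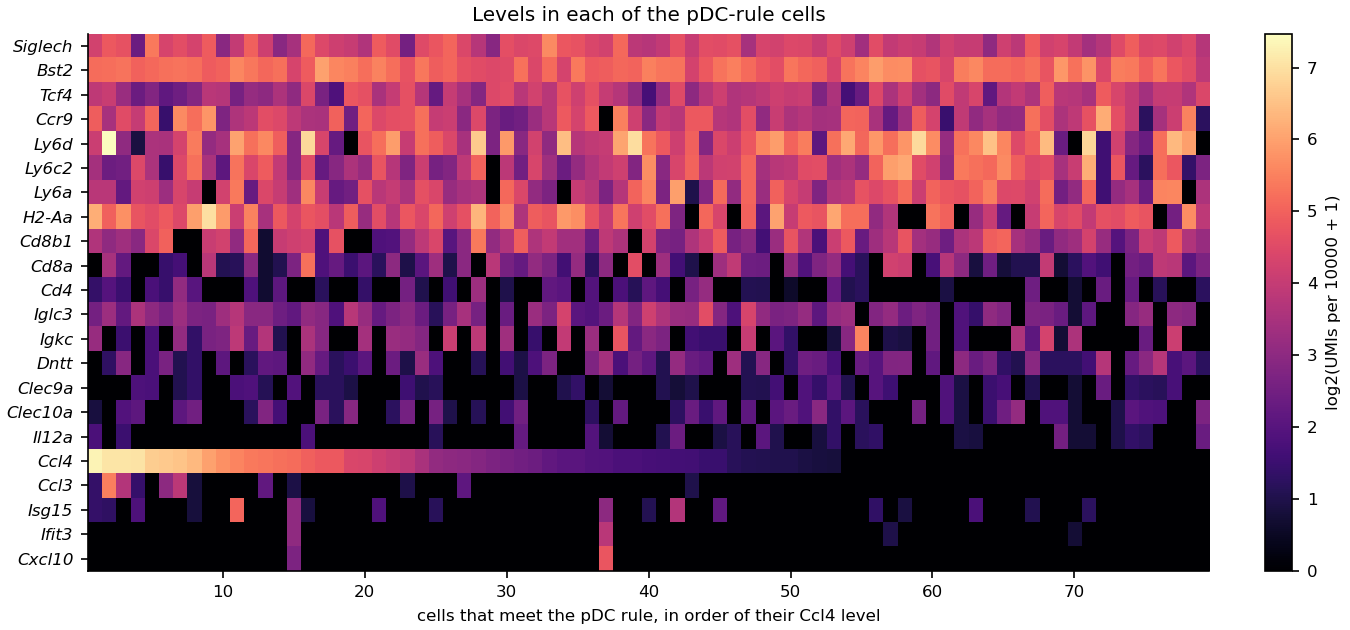
Levels of 22 genes in each of the 79 pDC-rule cells, as log2(UMIs per 10000 UMIs of the cell + 1), with cells ordered by Ccl4. Siglech, Bst2 and Tcf4 are present in every cell, Ccl4 is missing from 26 cells, and Ifit3 and Cxcl10 are concentrated in 2 cells.

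pDCs were found in all 6 barcode runs but not at the same share. The runs held 12 of 5173, 26 of 2344, 12 of 3391, 10 of 3496, 6 of 3378 and 13 of 5024 cells, or 0.232%, 1.11%, 0.354%, 0.286%, 0.178% and 0.259%. The interval of run 2 (0.726 to 1.62) lay above that of every other run, the highest of which reached 0.617. Run 2 also had the largest share of CD8+ T cells, 78.7% against 46.1% to 66.2%, and 7.55% macrophages against 0.619% to 14.1%. It contributed 26 of the 79 pDCs, so pooled levels lean on it. Between runs, Siglech kept to 1700 to 2369 CPM and Cd74 to 3519 to 5997 CPM. Tcf4 ranged from 701 to 1699 CPM, Spib from 214 to 739 CPM and Ly6c2 from 901 to 2571 CPM. Since the runs hold 6 to 26 pDCs and are not linked to mice, these spreads mix differences between cells and between samples.

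**Figure D5:**
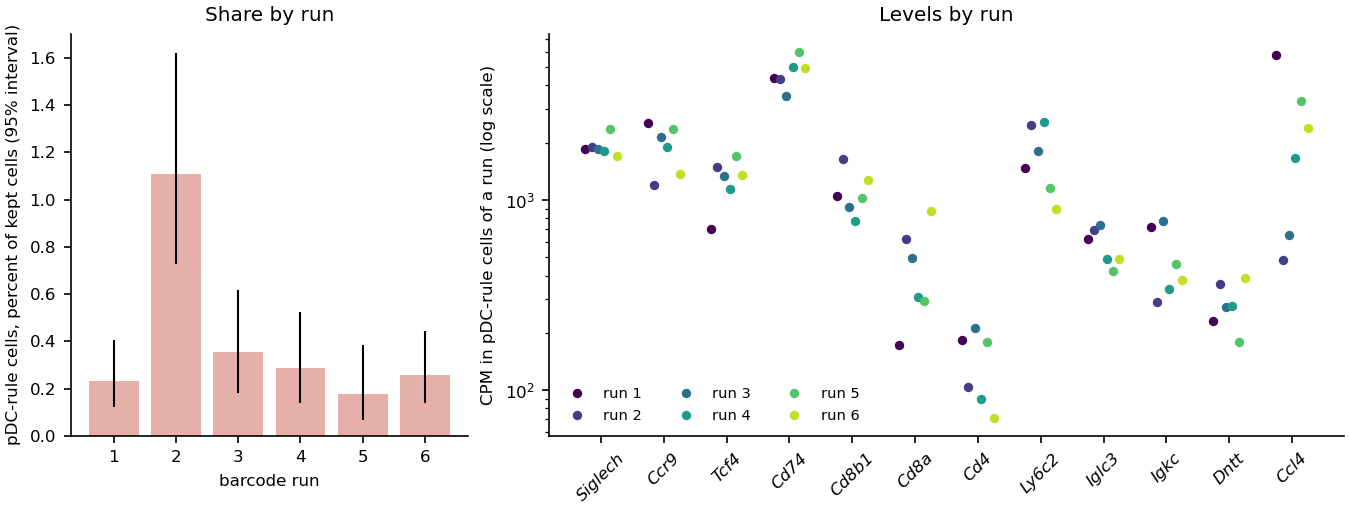
Left, pDC-rule cells as a percent of the cells of each of the 6 barcode runs, with 95% exact binomial intervals; right, levels of 12 genes (CPM, log scale) in the pDC-rule cells of each run. Run 2 stands at 1.11% against 0.178% to 0.354% in the others, and Ccl4 and Cd8a differ more between runs than Siglech and Cd74.

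The same rule was met by 39 of 11639 CD11c-selected cells, or 0.335% (0.238 to 0.458). These cells came from other samples and another selection, so their share is given beside that of the CD4/CD8-selected cells without a comparison. They were a less uniform set, since 20 of 39 held only 2 to 4 Siglech UMIs, 6 also met a rule for cDC1 (at least 2 Xcr1 UMIs, no Cd3e and at most 2 C1qa UMIs), and Ccr9 was found in 59%. With at least 5 Siglech UMIs, the lowest count seen in the CD4/CD8-selected pDCs, 19 cells remained, and Ccr9 was found in 18 of them and Tcf4 in 19. All 176 Cd8b1 UMIs lay in these 19 cells, in 15 of them, and 51 of 54 Cd8a UMIs.

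Although CD11c-selected cells had not been selected for CD4 or CD8, their pDCs held these transcripts as well. Cd8b1 stood at 676 CPM in the 19 cells, against 0.529 CPM in 6286 CD11c-selected macrophages and 2.11 CPM in 347 cDC1, with 0 UMIs of Cd3d. Cd8a per Cd8b1 UMI was 0.307 (0.222 to 0.418) in the 39 cells and 0.290 (0.208 to 0.398) in the 19, against 2.07 (1.49 to 2.93) in the 71 CD11c-selected cells with Cd3e. In all 39 cells, 15 of the 18 pDC markers were higher than in CD11c-selected macrophages, where 4.67% of genes were. Of 17 compared with cDC1, 15 were higher, where 5.05% of genes were. Siglech and Bst2 are among these markers and chose the cells, so these counts describe the cells and are no test. Markers such as Klk1 also entered the comparison only through their level in the pDCs. The 6 cells that met both rules were in both groups of the comparison with cDC1. None of the markers was lower than in macrophages or cDC1, where 5.78% and 0.956% of genes were. In the 19 cells Dntt was found in 12, Iglc3 in 14, Ccl4 in 11 and Il12a in 5. The genes that were frequent in CD4/CD8-selected pDCs were thus also found in CD11c-selected ones, at a depth of 260433 UMIs at which 3 UMIs amount to 11.5 CPM.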

How the data were processed

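The libraries came from 3 PAR2 wild-type and 3 PAR2 G37I samples of each bead selection. The deposited values are raw UMI counts of genes by cells, which the authors put into 1 matrix for each selection. The submitters' processing notes name Cell Ranger 3.0.2 and mm10, and a filter on cells is not given in the sources used here. A cell needed 200 detected genes, and 295 CD4/CD8-selected barcodes fell short of this. 51 barcodes occur more than once, 0 of them among the pDCs. The kept CD4/CD8-selected cells held 135965765 UMIs, with a median of 4361 per cell, and the pDCs held 765012, with a median of 9193 (2920 to 19334), 2811 detected genes and 6.74% mitochondrial UMIs, against 4.57% in all kept cells. No doublet caller was run.

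Barcodes name no sample, so tests between genotypes could not be made and each matrix was 1 sample. UMIs were summed per cell group and scaled to 1000000. Levels have exact Poisson, shares exact binomial and ratios exact conditional 95% intervals, and a sum of 0 was set to 3 UMIs in folds and their medians. PCR and sampling of mice are not covered by these intervals. The folds were tested on simulated data. Python 3.11.15, numpy 2.4.6 and scipy 1.17.1 were used. The members and gene lists were chosen with earlier results of these data known. Named genes were those of the lists, the 25 leading genes, the 10 highest and lowest against each comparison group and the 10 of largest variance over mean (mean of at least 0.3 after thinning), without ribosomal and mitochondrial genes in the rankings, and the text gives those that the results turn on. A few of these genes are not reported here. Of 31053 symbols, 98.0% matched GENCODE M21.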

Additional observations from a re-analysis of the deposited data

Results flagged for a closer look

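Among 25 values examined over the 6 barcode runs, the share of pDCs and the levels of 24 genes, 2 had an end value far from the nearest of the others relative to the whole range (above Dixon's 95% critical value for 6 values, which chance passes in about 1 in 20 groups). The share of pDCs was 1.11% in run 2, where the other runs had 0.178% to 0.354%. The level of Siglech was 2369 CPM in run 5, which holds 6 pDCs, where the other runs had 1700 to 1895 CPM, and Siglech was part of the rule. The runs were not linked to samples or genotypes.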

How the results depend on the processing

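The share of pDCs stayed within 0.316% to 0.377% with other limits on Siglech and Bst2, with no C1qa UMI allowed or with 500 detected genes. It was 0.469% with no limit on Cd3e. A setting with no limit on C1qa was not run, and 26 cells were outside the rule by C1qa alone. With at least 50 CPM, fewer genes were compared, and against CD8+ T cells 387 genes were higher and 263 lower, where 601 and 465 had been, and against macrophages 307 were higher and 491 lower, where 480 and 776 had been. Cd8a per Cd8b1 UMI was 0.346 in pDCs without T cell UMIs, and 0.822 in all cells with Cd3e. With at least 5 Siglech UMIs the share of pDCs among CD11c-selected cells was 0.163%. Of the listed genes, 29 had a variance at least 2 times the mean, and 18 after thinning to 1000 UMIs, where fewer UMIs remain. The count of listed genes at 20 CPM was 151, and 147 to 155 with each barcode run left out. Of 156 genes at 20 CPM or more, 8 moved by over 1.5 times without the 2 Ifit1 cells (Ccl5, Cd3g, Cxcl10, Ifit1, Ifit3, Ms4a4b, Nkg7 and Trbc2), and 8 without run 2, 3 of them among those just named (Cd3g, Cxcl10 and Ifit3) and 5 others, among them Ccr2, which went from 88.9 to 55.7 CPM, and Ltb, from 71.9 to 33.0 CPM. The alternatives without a limit on Cd3e, without the Ifit1 cells, without the genes of the rules in the T cell and macrophage lists, without cells of both comparison groups or with Siglech, with 5 Siglech UMIs and with all cells with Cd3e were chosen after seeing the data. No paired analysis was possible because the barcodes carry no replicate number. In the pDCs, the 3 UMIs that a count of 0 allows amount to 3.92 CPM.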
